A study of Mus musculus with 6 samples.

Results

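The 10 genes described here are 5 fibroblast growth factor (FGF) ligand genes, Fgf4, Fgf5, Fgf8, Fgf13 and Fgf15, and 5 receptor genes, Fgfr1, Fgfr2, Fgfr3, Fgfr4 and Fgfrl1. They were chosen by name out of 52609 annotated genes, with earlier results of these data known, and 17 further FGF ligand genes are described as a list of their own. Epiblast stem cells are primed pluripotent cells grown from the epiblast of the early mouse embryo. The RNA-seq libraries number 3 with Activin A and 3 without it. The group with Activin A received 20 ng/mL of this TGF-beta family ligand, and the group without it received 0 ng/mL. Both groups also received FGF2 protein at 10 ng/mL, IWP2, an inhibitor of Wnt secretion, at 5 µM, and SB431542, which inhibits the type I receptors of Activin, Nodal and TGF-beta, at 2 µM. Every culture was therefore exposed to an added FGF ligand and to an Activin receptor inhibitor. The dissected epiblast was kept on growth-arrested mouse embryonic fibroblasts (feeder cells), whose RNA may be in the libraries. The series' title poses the question of Activin A's effect on the entry of these cells into the ectoderm lineage.

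FGF ligands bind receptor tyrosine kinases at the cell surface together with heparan sulfate, and the activated receptors signal through RAS and the ERK kinases. In epiblast stem cells, FGF and Activin signals are the pair usually supplied to keep the primed state, and FGF to ERK signalling drives naive pluripotent cells towards it. The third immunoglobulin-like (Ig) domain of FGFR1, FGFR2 and FGFR3, which decides ligand binding, ends with 1 of 2 alternative exons that give the receptor forms called IIIb and IIIc. For FGFR2, epithelial cells typically make IIIb and mesenchymal cells IIIc.

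The IIIb exon of Fgfr2 is shown because the receptor results below count transcripts by which exon of the pair they hold. It has 148 bases, lies at chr7:130199758-130199905 on the minus strand of GRCm38, and is printed 5′ to 3′ on the gene's strand from the GENCODE M21 transcripts, all in lower case.
Fgfr2 IIIb exon: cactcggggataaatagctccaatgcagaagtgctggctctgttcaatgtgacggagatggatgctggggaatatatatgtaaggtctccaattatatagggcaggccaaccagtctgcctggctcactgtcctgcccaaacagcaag

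Depth was 9946521 to 16350923 estimated reads a library with Activin A, against 13567995 to 14992042 without. Of 14 epiblast stem cell markers, 13 were detected well enough to test, and their summed level was 2190 to 2210 CPM (reads scaled to a common library total) with Activin A and 1590 to 1620 CPM without. Of the 13, 8 were higher with Activin A in the test below and 3 were lower, namely Lin28a (338 CPM with, 537 CPM without), Sox2 (82.3 CPM with, 110 CPM without) and Lin28b (114 CPM with, 136 CPM without). That test called 15.2% of all tested genes higher and 14.0% lower. Dppa4, at 0.229 CPM with and 0.584 CPM without, was the 1 marker not tested. Library 3 with Activin A stood further from its replicates (chi-square per degree of freedom 6.07 and 7.19) than the other pairs of libraries in a group did from each other (1.87 to 3.66). The labels of library 1 without Activin A disagree: its title and genotype put it in that group, but Activin A is listed among its growth factors, and the treatment text lists Activin A for all 6 samples. The series' design text speaks of 2 lines with 3 replicates each, so a difference in line and the difference in Activin A cannot be told apart. The labels do not say that replicates were separate cultures, so the p-values rest on a spread between samples that may be only technical.

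With Activin A, 4 of the 5 ligand genes had higher transcript levels, led by Fgf4 at 4.81-fold. Of these 4, Fgf13 encodes a factor that stays inside the cell and is not a classical receptor ligand. The 3 receptors Fgfr1, Fgfr2 and Fgfr3 had lower levels with Activin A, led by Fgfr3 at 2.88-fold. The weakly expressed receptor gene Fgfr4 was higher, and Fgfrl1 did not pass the test. Of the 9 genes tested in edgeR's quasi-likelihood fit, 8 had an adjusted p under 0.05, against 29.2% of the 15448 genes tested. By direction, 5 were higher with Activin A, against 15.2% of all tested genes, and 3 were lower, against 14.0%. The CPM values of the groups did not overlap for 8 of the 9, against 42.9% of all tested genes. Fgf8 was below the filter on low counts, and Fgfr4 passed that filter only through its libraries with Activin A, so these counts describe the genes and carry no test of their own. Without the doubted libraries, number 3 with Activin A and number 1 without, the test again called 8, of which 5 were higher and 3 lower. In a bulk sample, fewer cells of a type and less RNA per cell cannot be told apart.

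**Figure D1:**
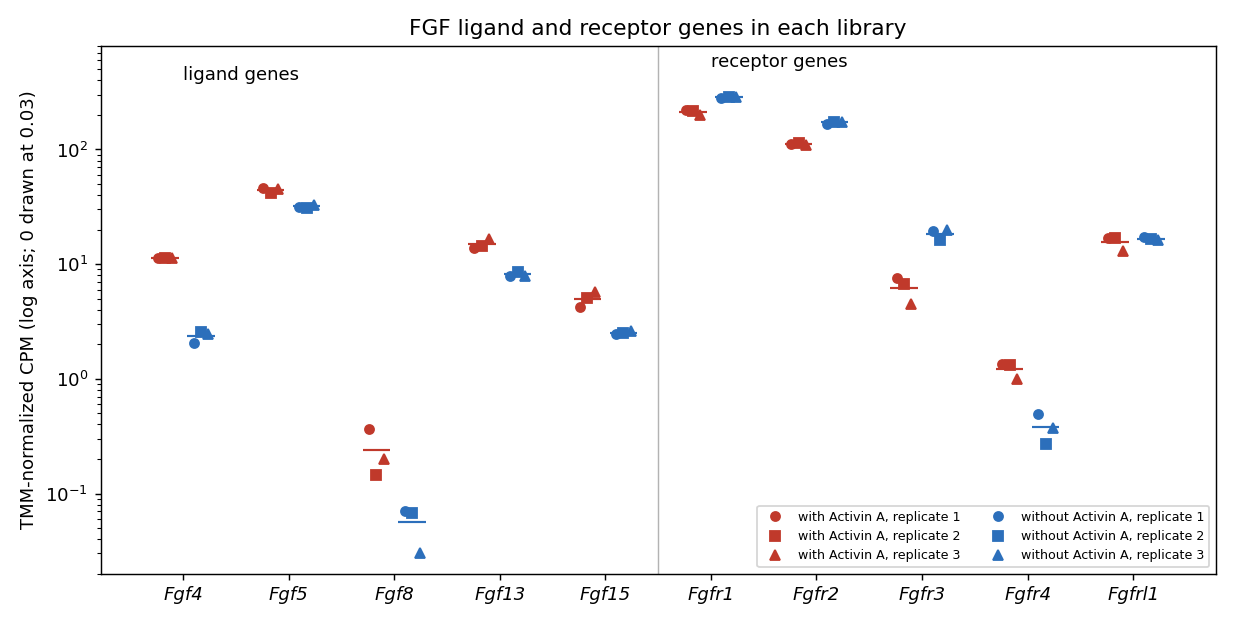
TMM-normalized CPM of the 10 genes (log axis) in each library with Activin A (red, left of each pair) and without (blue); horizontal lines are group means of 3 libraries. Fgf4 sits at 11.4 CPM in all libraries with Activin A and at 2.05 to 2.56 CPM without, and Fgfr1 at 199 to 223 CPM with Activin A against 284 to 289 CPM without.

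Fgf4 encodes a secreted ligand made by pluripotent cells, needed in the embryo by the extraembryonic tissues around the epiblast. The gene (ENSMUSG00000050917.5) lies on chromosome 7 of GRCm38, the build of all coordinates here, at 144847367 to 144865243, plus strand. Its level was 11.4, 11.4 and 11.4 CPM in libraries 1, 2 and 3 with Activin A, against 2.05, 2.56 and 2.47 CPM in libraries 1, 2 and 3 without. All libraries with Activin A were far above those without, and the spread within each group was small beside the gap. The log2 fold change was 2.26 ± 0.13 (standard error, edgeR adjusted p = 1.15e-08). Nearly all of its signal came from the 3030-base transcript Fgf4-201, which held 88.7% of the gene's TPM (reads scaled by transcript length and library total) with Activin A and 91.3% without. The 395-base Fgf4-202 held the rest, on only 2.13 reads in library 3 with Activin A and 0.507 in library 1 without. Those few reads lift the gene to 3.63 TPM in library 3 with Activin A, against 2.50 and 2.43 TPM in libraries 1 and 2.

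Fgf15, the mouse counterpart of the endocrine ligand FGF19, is the next FGF gene along that chromosome. It lies at 144896531 to 144900953, plus strand (ENSMUSG00000031073.6), 31.3 kb past the end of Fgf4. Fgf15 had 4.22, 5.05 and 5.69 CPM with Activin A and 2.48, 2.49 and 2.62 CPM without. The groups did not overlap, and each library with Activin A was above every library without. The difference was 1.94-fold, a log2 fold change of 0.96 ± 0.17 (standard error, edgeR adjusted p = 0.000703). Over 18 alternative settings the adjusted p ran between 1.83e-05 and 0.0718, and it missed 0.05 with an offset for transcript length and in both limma-trend fits to TPM. Fgf15-201 held 97.5% of the gene's TPM with Activin A and 79.8% without, and the 600-base Fgf15-204 held 0% with and 14.5% without, from a single library.

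Fgf3 and Ccnd1, picked by name, lie to either side of this pair, and neither was called with it. Fgf3, which ends 2.93 kb before Fgf4, averaged 0.0651 CPM with Activin A and 0.115 CPM without, too low to test. Ccnd1, the cyclin D1 gene, lies 29.0 kb beyond Fgf15 and averaged 92.9 CPM with, against 100 CPM without (log2 fold change -0.11, edgeR adjusted p = 0.149).

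Fgf5, a secreted ligand and a classical marker of the epiblast and of primed pluripotency, had the highest level per length of the ligand genes. It lies on chromosome 5 at 98254184 to 98277030, plus strand (ENSMUSG00000029337.2). Its level was 46.5, 41.5 and 44.8 CPM with Activin A and 31.5, 31.1 and 33.1 CPM without. The lowest library with Activin A was above the highest without, but the difference was modest at 1.39-fold. The log2 fold change was 0.48 ± 0.067 (standard error, edgeR adjusted p = 7.93e-05). It missed 0.05 in both limma-trend fits to TPM, and the adjusted p over all alternatives ran between 7.12e-09 and 0.0669. The full-length transcript Fgf5-201 averaged 11.6 TPM with Activin A and 8.27 TPM without, while the 600-base transcript Fgf5-202 averaged 4.42 TPM with and 4.11 TPM without.

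Fgf13 belongs to the FGF homologous factors, which stay inside the cell, bind voltage-gated sodium channels and do not act as classical receptor ligands. It lies on chromosome X at 59062145 to 59568071, minus strand (ENSMUSG00000031137.17). Its level was 13.9, 14.3 and 16.6 CPM with Activin A and 7.94, 8.56 and 7.92 CPM without. The groups were well apart, at 1.82-fold and a log2 fold change of 0.86 ± 0.10 (standard error, edgeR adjusted p = 1.74e-05). By transcript, Fgf13-201 averaged 2.72 TPM with Activin A and 1.62 TPM without, Fgf13-202 averaged 1.32 TPM with and 0.18 TPM without, most of it in library 3 with Activin A, and the noncoding Fgf13-207 averaged 1.86 TPM with and 1.55 TPM without. The gene overlaps 2 annotated genes on the same strand and 2 on the opposite strand, and whether the authors' counting used strand is not given in the sources used here.

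Fgf8, a secreted ligand of the primitive streak that the embryo needs for gastrulation, was near the limit of detection. The gene (ENSMUSG00000025219.13) lies on chromosome 19 at 45736798 to 45742915, minus strand. It held 6, 2 and 2 reads with Activin A and 1, 1 and 0 reads without. These counts are too few to establish a direction. They fell mostly on the 630-base transcript Fgf8-203, with 1.9 reads on Fgf8-206 in library 2 with Activin A. With no filter on low counts, the log2 fold change was 2.17 ± 1.1 (standard error, edgeR adjusted p = 0.201).

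Fgfr1, the main FGF receptor kinase of the mouse epiblast, had the highest mean level per length of the 10 genes. It lies on chromosome 8 at 25513654 to 25575718, plus strand (ENSMUSG00000031565.18). Its level was 223, 215 and 199 CPM with Activin A and 284, 288 and 289 CPM without. Library 3 with Activin A was the lowest of the 6, and the highest library with Activin A was still below all those without. The gene was 1.35-fold lower with Activin A, a log2 fold change of -0.43 ± 0.051 (standard error, edgeR adjusted p = 1.52e-05).

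Fgfr2, a receptor kinase best known from epithelial and mesenchymal exchange in limb and lung, lies on chromosome 7 at 130162451 to 133123350, minus strand (ENSMUSG00000030849.18). Its level was 111, 113 and 110 CPM with Activin A and 168, 174 and 174 CPM without. Each group was tight and the groups were far apart. The gene was 1.54-fold lower with Activin A, a log2 fold change of -0.62 ± 0.048 (standard error, edgeR adjusted p = 1.78e-07). The annotated span is long because of the transcript Fgfr2-217, which averaged 6.94 TPM with Activin A and 8.33 TPM without, and it overlaps 36 annotated genes on the same strand and 33 on the opposite strand. Whether some of the reads counted for Fgfr2 came from those genes was not tested.

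Fgfr3, a receptor kinase known as a brake on bone growth, changed most among the receptors that were lower. It lies on chromosome 5 at 33721674 to 33737068, plus strand (ENSMUSG00000054252.18). Its level was 7.52, 6.66 and 4.49 CPM with Activin A and 19.4, 16.3 and 19.8 CPM without. Every library with Activin A was below every library without, and library 3 was again the lowest. The log2 fold change was -1.53 ± 0.14 (standard error, edgeR adjusted p = 1.14e-06). Leaving out each library in turn, it ran between -1.69 and -1.37. The long transcript Fgfr3-215 averaged 0.623 TPM with Activin A and 1.84 TPM without, and the short Fgfr3-217 averaged 0.907 TPM with and 1.66 TPM without, as Fgfr3-216 averaged 0.108 TPM with and 0.672 TPM without.

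Fgfr4, the receptor through which Fgf15 acts on the liver together with beta-Klotho, was expressed at a low level. It lies on chromosome 13 at 55152640 to 55168759, plus strand (ENSMUSG00000005320.9). It held 22, 18 and 10 reads with Activin A, which is 1.34, 1.32 and 0.998 CPM, and 7, 4 and 5 reads without, which is 0.496, 0.269 and 0.374 CPM. All libraries with Activin A were higher by CPM, but each value rests on few reads. By TPM the groups overlapped, with 0.216 TPM in library 3 with Activin A and 0.257 TPM in library 1 without. The full-length transcript Fgfr4-201 averaged 0.228 TPM with and 0.0708 TPM without, and the retained-intron model Fgfr4-202 and the noncoding Fgfr4-203 made up the rest of the gene's TPM. The difference in CPM was 3.23-fold, a log2 fold change of 1.69 ± 0.36 (standard error, edgeR adjusted p = 0.00255). Like Fgf15, it missed 0.05 with the length offset and in both limma-trend fits, and the adjusted p over all alternatives ran between 0.001 and 0.13.

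Fgfrl1 encodes a receptor-like protein that binds FGFs but lacks the kinase domain. It lies on chromosome 5 at 108692382 to 108706924, plus strand (ENSMUSG00000008090.14). Its level was 16.9, 17 and 13.1 CPM with Activin A and 17.4, 16.5 and 16.1 CPM without. The groups overlapped, and library 3 with Activin A was the 1 that stood below the rest. The log2 fold change was -0.07, with an approximate 95% interval between -0.27 and 0.12 (edgeR adjusted p = 0.64). Fgfrl1-201 averaged 3.65 TPM with and 4.44 TPM without, Fgfrl1-202 averaged 0.915 TPM with and 0.431 TPM without, and the retained-intron Fgfrl1-205 averaged 0.691 TPM with and 1.19 TPM without.

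**Figure D2:**
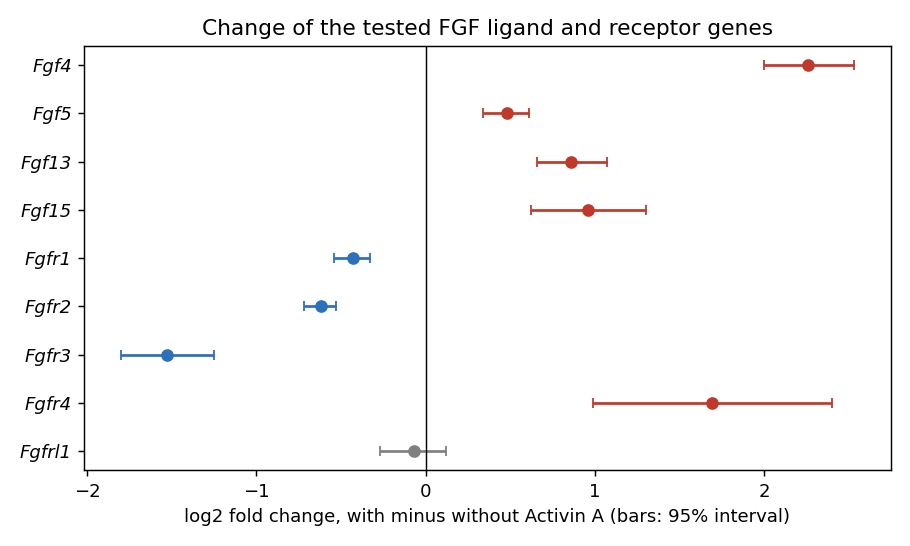
Log2 fold change (with minus without Activin A) of the 9 tested genes from edgeR; bars are approximate 95% intervals, red marks genes called higher and blue genes called lower with Activin A. Fgf4 is at 2.26 and Fgfr3 at -1.53, and the interval of Fgfrl1 spans 0.

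Markers of the feeder cells also differed between the groups. Of 22 embryonic fibroblast markers, 21 were tested, 9 were higher with Activin A and 5 were lower, and their summed level was 1530 to 1640 CPM with Activin A and 1970 to 1990 CPM without. Over all tested genes, 15.2% were higher and 14.0% lower. None of the 22 was at 0 or under 1 CPM in all libraries. The 5 lower were Acta2 (168 CPM with, 407 CPM without), Tagln (313 CPM with, 449 CPM without), Col1a1 (234 CPM with, 341 CPM without), Col1a2 (124 CPM with, 212 CPM without) and Col5a1 (86.8 CPM with, 111 CPM without). Among the 9 higher were Col3a1 (46.2 CPM with, 19.9 CPM without) and Thy1 (14.0 CPM with, 6.26 CPM without). The summed level follows the most highly expressed markers, chiefly Tagln, Acta2 and Col1a1, and so does not speak for the list as a whole. The part of feeder RNA, and that of the difference in epiblast markers, in the results for the FGF genes was not tested.

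Levels were compared between genes as TPM. With Activin A the order was Fgfr1 (71.5 ± 6.77 TPM, SD, n = 3), Fgfr2 (66.1 ± 4.58), Fgf5 (16.0 ± 1.07), Fgf13 (5.90 ± 0.531), Fgfrl1 (5.25 ± 0.267), Fgf4 (2.85 ± 0.677), Fgfr3 (2.14 ± 0.738), Fgf15 (2.00 ± 0.390), Fgfr4 (0.422 ± 0.191) and Fgf8 (0.317 ± 0.191). Here the ranges of the libraries overlapped between Fgfr1 and Fgfr2, between Fgf13 and Fgfrl1, from Fgf4 over Fgfr3 to Fgf15, and between Fgfr4 and Fgf8. Without Activin A the order was Fgfr1 (113 ± 9.14 TPM), Fgfr2 (93.5 ± 1.33), Fgf5 (12.4 ± 1.02), Fgfr3 (6.22 ± 2.11), Fgfrl1 (6.06 ± 0.959), Fgf13 (3.64 ± 0.492), Fgf15 (1.2 ± 0.178), Fgf4 (0.583 ± 0.0285), Fgfr4 (0.130 ± 0.111) and Fgf8 (0.0767 ± 0.0664). In that group the overlapping neighbours were Fgfr3 and Fgfrl1, and Fgfr4 and Fgf8. Fgf4 stood just above its neighbour Fgf15 with Activin A (lowest Fgf4 library 2.43 TPM, highest Fgf15 library 2.42 TPM) and below it without (highest Fgf4 library 0.601 TPM, lowest Fgf15 library 1.04 TPM).

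Much of the receptors' TPM lay in short annotated transcripts that encode no whole receptor. Fgfr2-224, a 335-base model with a retained intron, averaged 29.1 TPM with Activin A and 39.6 TPM without, which was 44.0% of the gene's TPM with and 42.3% without. TPM scales reads by transcript length, so these shares rest on few reads. Fgfr2-224 held 79.7, 49.2 and 36.1 reads with Activin A, of 1819, 1545 and 1100 for the gene. Without Activin A it held 79.4, 75.6 and 73.7 reads, of 2365, 2577 and 2324. Fgfr2-221, of 790 bases and also with a retained intron, averaged 12.8 TPM with and 17.2 TPM without. For Fgfr1, the 385-base model Fgfr1-218 averaged 21.6 TPM with and 33.5 TPM without, and the 381-base Fgfr1-217 averaged 3.88 TPM with and 15 TPM without. Fgfr1-218 held 90.6, 44.5 and 53.1 reads with Activin A and 104, 122 and 81.8 reads without. Fgfr1-217 held 12.7, 24.5 and 0.00613 reads with and 45.8, 45.1 and 41.8 reads without. All 4 had lower means with Activin A, as the whole genes did. Counting only transcripts of at least 1000 bases, a setting chosen after the data had been seen, Fgfr1 averaged 38.9 ± 1.36 TPM with and 52.8 ± 2.23 TPM without, and Fgfr2 averaged 20.7 ± 1.53 TPM with and 32.3 ± 1.93 TPM without (SD, n = 3 each). On those transcripts alone both receptors were again lower with Activin A, Fgfr1 stood clearly above Fgfr2 in both groups, and 8 genes were called.

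For Fgfr2, both receptor forms were lower with Activin A and IIIc was the main form in both groups. IIIc transcripts summed to 9.46, 10.8 and 10.2 TPM with Activin A and to 16.9, 19.4 and 16.5 TPM without. IIIb transcripts summed to 1.71, 1.1 and 2.03 TPM with and to 3.55, 2.76 and 3.59 TPM without. Neither form overlapped between the groups. The share of IIIb in IIIb plus IIIc was 15.3%, 9.26% and 16.7% with Activin A and 17.4%, 12.5% and 17.8% without. These shares overlapped, with replicate 2 the lowest in each group. They averaged 13.7% ± 3.94 with and 15.9% ± 2.98 without (SD, n = 3 each), a difference of -2.15 percentage points (exact two-sided permutation test p = 0.5). With 3 against 3 libraries, the smallest p this test can give is 0.1. Transcripts holding 1 of the 2 exons carried 540 to 846 reads with Activin A and 1281 to 1517 reads without.

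For Fgfr1, IIIc transcripts summed to 20.6, 20.7 and 20.3 TPM with Activin A and to 27.5, 27.4 and 27.4 TPM without. IIIb transcripts summed to 11.9, 11.9 and 11.2 TPM with and to 13.4, 16.2 and 13.8 TPM without. Both forms were lower with Activin A in every library, and the IIIc values were nearly identical within each group. The IIIb share averaged 36.2% ± 0.597 with and 34.5% ± 2.42 without (SD, n = 3 each), a difference of 1.75 points (exact two-sided permutation test p = 0.4). By estimated reads in place of TPM, the share was lower, at 28.3%, 28.5% and 27.6% with and 25.0%, 29.0% and 25.5% without. The first Ig domain of FGFR1 is also optional, and its exon lies at chr8:25555508-25555774. Transcripts that skip it made up 46.9%, 56.1% and 59.4% with Activin A and 38.5%, 52.8% and 33.5% without. These shares overlapped between the groups and averaged 54.2% ± 6.47 with and 41.6% ± 10.0 without (exact two-sided permutation test p = 0.2).

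The leading IIIc transcript of Fgfr1, Fgfr1-202, averaged 11.8 TPM with Activin A and 20.9 TPM without, and the leading IIIb transcript, Fgfr1-213, averaged 11.7 TPM with and 14.5 TPM without. The Fgfr1 shares depend on which exon combinations the annotation holds. Among the Fgfr1 coding transcripts with reads, the single IIIb transcript, Fgfr1-213, also skips the first Ig exon and has a following exon of 84 bases. The IIIc transcript Fgfr1-203 also makes that skip, but its following exon has 90 bases. No annotated IIIc transcript pairs the skip with the 84-base exon. Among these coding transcripts, a read that spans both the skip and the far end of the 84-base exon can therefore be placed only on a IIIb model. The other annotated Fgfr1 models without the first Ig exon, such as the retained-intron Fgfr1-206, were not checked for this. The IIIb share and the skip of the first Ig exon cannot be told apart there. For Fgfr2, transcripts that skip the corresponding exon averaged 57.2% with Activin A and 57.3% without.

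For Fgfr3, nearly all reads on transcripts with 1 of the 2 exons lay on IIIc. Its IIIc transcripts summed to 0.940, 0.918 and 0.604 TPM with Activin A and to 2.76, 2.46 and 2.36 TPM without, with no overlap. Its IIIb transcripts held 0, 0 and 3 reads with Activin A and 0, 0 and 4 reads without. Those reads fell on a single 601-base model, and the IIIb share by TPM came to 43.9% in library 3 with Activin A and 17.6% in library 3 without, on 3 of 37 and 4 of 198 reads. A count of 0 allows up to 3 reads, so no change in the IIIb form was detectable at this depth.

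**Figure D3:**
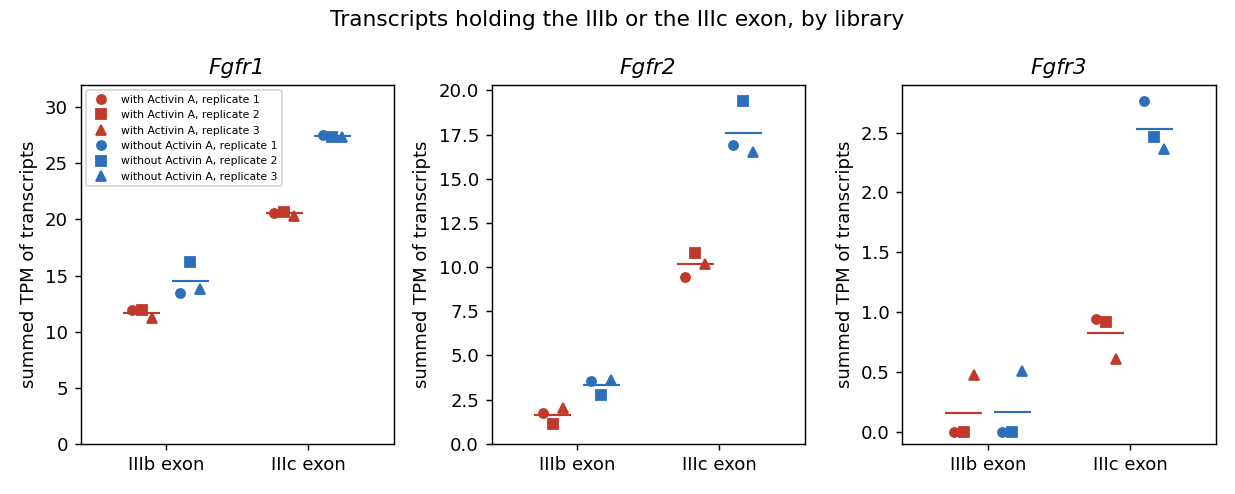
Summed TPM of transcripts that hold the IIIb or the IIIc exon of Fgfr1, Fgfr2 and Fgfr3 in each library with Activin A (red) and without (blue); horizontal lines are group means of 3 libraries. The IIIc form of Fgfr2 lies between 9.46 and 10.8 TPM with Activin A and between 16.5 and 19.4 TPM without.

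A test of transcript usage asked whether any transcript changed its part of its gene. Of 31 tested transcripts in 6 of these genes, 0 had an adjusted p under 0.05 in diffSpliceDGE of edgeR, against 0.430% of the 33992 transcripts tested, and 2 had an unadjusted p under 0.05. The first was Fgfr2-215, a IIIc transcript with the first Ig exon, with 1.27, 54.9 and 0.0628 reads with Activin A and 324, 190 and 234 reads without (adjusted p = 0.134). Nearly all of its reads with Activin A were in library 2, and without that library it passed (adjusted p = 0.00265). The other was Fgfr1-203, a IIIc transcript that skips the first Ig exon, with 318, 523 and 403 reads with Activin A and 192, 552 and 2.01 reads without (adjusted p = 0.551). It passed when library 2 without Activin A was left out (adjusted p = 0.0176). For level rather than share, 34 transcripts in 9 of the genes were tested in edgeR and 3 passed, against 2.71% of the 39997 transcripts tested. Fgf4-201 (log2 fold change 2.30, adjusted p = 0.00328 in edgeR) and Fgf5-201 (0.52, adjusted p = 0.0382) were higher with Activin A, and the IIIc transcript Fgfr2-207 was lower (-0.67, adjusted p = 0.0471). The uncertainty of dividing reads among near-identical transcripts is not part of these p-values.

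The RNA-binding proteins known to choose between the receptor exons were set beside these shares. Of 17 splicing regulators tested, 2 were higher with Activin A, 5 were lower and 10 did not pass. Over all tested genes, 15.2% were higher and 14.0% lower. The regulators' median log2 fold change was -0.09, against -0.0012 over all tested genes. Esrp1, an epithelial splicing regulator that promotes the IIIb exon of Fgfr2, had 34.1, 34.5 and 33.3 CPM with Activin A and 17.9, 16.2 and 17 CPM without. The groups were far apart, a log2 fold change of 1.0 ± 0.072 (standard error, edgeR adjusted p = 9.08e-08). Its relative Esrp2 averaged 1.61 CPM with and 1.18 CPM without (adjusted p = 0.305 in edgeR). Rbfox2, which also bears on this exon choice, averaged 153 ± 3.49 CPM with Activin A, against 185 ± 0.821 CPM without (SD, n = 3 each, edgeR adjusted p = 0.000486). Ptbp1, known to repress the IIIb exon, averaged 546 CPM with, against 606 CPM without (log2 fold change -0.15, edgeR adjusted p = 0.0339), and lost its call without library 1 with Activin A and without each of the 3 libraries in the group without it (adjusted p between 0.0664 and 0.139). Hnrnpa1 was higher (log2 fold change 0.20), and Srsf1 (-0.27) and Tia1 (-0.23) were lower. Hnrnpa1 lost its call without library 2 in the group without Activin A (adjusted p = 0.0545), and Tia1 without library 1 or 3 there (adjusted p = 0.0559 and 0.0506, all in edgeR). In the limma-trend fits, Hnrnpa1, Srsf1 and Tia1 lost their calls, as Srsf1 did with the length offset, and Ptbp1 lost its call with upper-quartile scaling, with the replicate block and on transcripts of at least 1000 bases (-0.07).

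Among 17 other FGF ligand genes, 7 were tested, of which 3 were higher with Activin A, 0 were lower and 4 did not pass. Over all tested genes the shares were 15.2% higher and 14.0% lower. The median log2 fold change of the 7 was 0.53. Fgf17, a close relative of Fgf8, had 4.40, 4.76 and 2.69 CPM with Activin A and 1.42, 0.741 and 0.897 CPM without (log2 fold change 1.98, edgeR adjusted p = 7.51e-05). Fgf14 and Fgf11 are intracellular homologous factors, as Fgf13 is. Fgf14 averaged 8.59 ± 1.25 CPM with Activin A, against 2.42 ± 0.499 CPM without (SD, n = 3 each, edgeR adjusted p = 1.52e-06), and Fgf11 averaged 10.4 ± 0.906 CPM with, against 7.31 ± 0.407 CPM without (edgeR adjusted p = 0.00266). The groups did not overlap for any of these 3, against 42.9% of all tested genes, but the 3 were named because they were called. Fgf11 lost its call in the limma-trend fit to log2(TPM + 0.1). The remaining ligands were low, with 10 of the 17 under 1 CPM in every library, Fgf16 and Fgf20 at 0 reads in all 6 and the cells' own Fgf2 at 0.645 CPM with and 0.593 CPM without.

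Heparan sulfate and co-receptor genes moved in both directions. Of 25 tested genes, 3 were higher with Activin A, 7 were lower and 15 did not pass, with a median log2 fold change of -0.02. The shares over all tested genes were 15.2% higher and 14.0% lower. Flrt3, a membrane protein that binds FGF receptors in Xenopus, averaged 4.55 ± 0.697 CPM with Activin A, against 10.5 ± 0.718 CPM without (SD, n = 3 each, edgeR adjusted p = 9.35e-06). Sulf1, which removes 6-O-sulfate groups from heparan sulfate outside the cell, had 117, 119 and 119 CPM with and 187, 180 and 184 CPM without (log2 fold change -0.63, edgeR adjusted p = 1.19e-07). Hs6st1, which adds those sulfate groups, averaged 176 ± 14.4 CPM with Activin A, against 128 ± 2.87 CPM without (log2 fold change 0.46, edgeR adjusted p = 3.66e-05). The glypican Gpc4 was lower (-0.44), and Flrt2 (0.58) and the FGF signalling inhibitor Il17rd (0.18) were higher on the log2 scale. In the limma-trend fits to TPM, Sulf1 (-0.48 and -0.5), Flrt2 (0.21 and 0.41) and Il17rd (0.13 and 0.16) lost their calls, as Sulf1 (-0.45) and Il17rd (0.21) did with the length offset. Il17rd also lost its call with DESeq2 and with no low-count filter. It lost its call too without library 1 with Activin A and without each of the libraries in the group without it (edgeR adjusted p between 0.055 and 0.124).

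Of 22 genes of the relay between receptors and ERK, 1 was higher with Activin A, 8 were lower and 13 did not pass, with a median log2 fold change of -0.09. Of all tested genes, 15.2% were higher and 14.0% lower. The docking protein gene Gab1 (-0.48), the RAS exchange factor gene Sos2 (-0.33) and the ERK-activated kinase gene Rps6ka3 (-0.24) were lower on the log2 scale. No gene of this list passed in the limma-trend fits to TPM, and with the length offset Sos2 (-0.13) and Rps6ka3 (-0.18) lost their calls.

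Genes that ERK signalling induces did not share a direction. Of 21 tested, 6 were higher with Activin A, 8 were lower and 7 did not pass, with a median log2 fold change of -0.11. Among all tested genes, 15.2% were higher and 14.0% lower. Etv5, an ETS transcription factor induced by FGF signalling, had 121, 124 and 116 CPM with Activin A and 42.0, 40.6 and 40.4 CPM without. The libraries with Activin A were all far above those without, at 2.93-fold (log2 fold change 1.55, standard error 0.056, edgeR adjusted p = 5.15e-11). Its relative Etv1 (0.49 on the log2 scale) and the immediate early gene Egr1 (0.22) were also higher. Both lost their call in the limma-trend fits to TPM, where Etv1 came to 0.16 and 0.2, and Etv1 also with the length offset (0.25). Dusp5, a nuclear phosphatase that turns ERK off, had 33.9, 37.5 and 29.8 CPM with Activin A and 88.5, 92.8 and 90.9 CPM without, and so went the other way at 2.67-fold lower (log2 fold change -1.42, standard error 0.072, edgeR adjusted p = 2.06e-09). Phlda1 (-0.86) and the phosphatase gene Dusp4 (-0.50) were lower too. Named after their values were seen, Dusp6, the ERK phosphatase most used as a readout of FGF signalling, averaged 77.1 CPM with, against 93.7 CPM without (edgeR adjusted p = 0.00169), and Spry4, a feedback inhibitor, averaged 5.75 CPM with and 5.14 CPM without (adjusted p = 0.41 in edgeR).

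**Figure D4:**
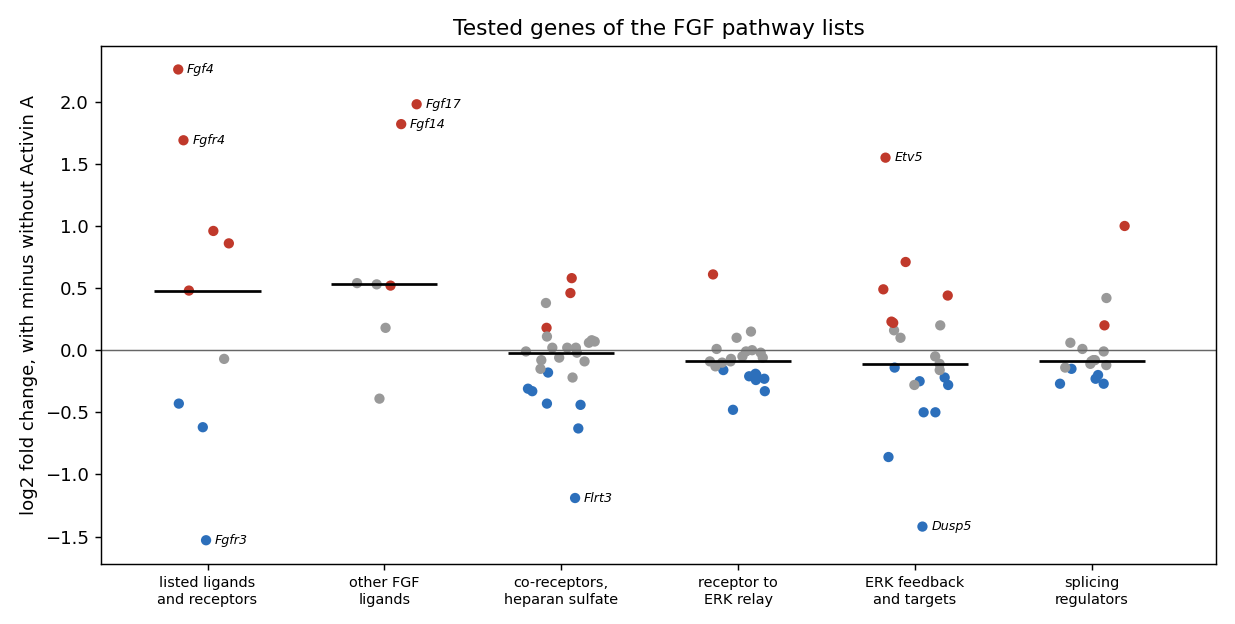
Log2 fold change (with minus without Activin A) of every tested gene in the FGF gene lists; red and blue mark genes called higher and lower with Activin A, grey marks genes not called, and black lines are list medians. Etv5 (1.55) and Dusp5 (-1.42) lie at opposite ends of the list of ERK-induced genes.

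The likeness of other genes' profiles to the leading ligand and the leading receptor is a description over 6 libraries that share the same group difference. By Pearson correlation of log2(CPM + 1) among 9672 protein-coding genes of at least 10 CPM, the closest to Fgf5 were Pla2r1 (0.9949), Camta1 (0.9948) and Gria4 (0.9945). The closest to Fgfr1 were Ifitm1 (0.9992), Huwe1 (0.9982) and Sox13 (0.998). A correlation over 0.9 was common, with 789 genes for Fgf5 and 1231 for Fgfr1. Such a correlation does not fix the size of the change: the log2 fold change was -0.43 for Fgfr1, -1.13 for Ifitm1, -0.35 for Huwe1 and -0.84 for Sox13, and it was 0.48 for Fgf5, 0.52 for Pla2r1, 0.36 for Camta1 and 0.73 for Gria4.

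Sequence shared with other genes was low for all 10. In 31-base words, the share also found in other annotated genes was 0% for Fgf4, Fgfr4 and Fgfrl1, and at most 2.69%, in Fgfr2, whose shared words all lie in Ctbp2. In Fgfr1 it was 2.25%, chiefly the gene Gm10461, and in Fgfr3 it was 0.445%, in the pseudogene Fgfr3-ps.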

How the data were processed

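The 6 libraries were made from polyadenylated RNA with a stranded kit, per the labels' protocols. For each of 133618 transcripts, the authors deposited estimated counts, not normalized, and TPM, which corrects for transcript length and library total, in salmon's columns per the file headers. Salmon, DESeq2 and edgeR are named in the submitters' processing notes. What index, genome build and strand setting was used is not given in the sources used here.

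Transcripts were matched without version to GENCODE M21 (GRCm38). 133399 matched, and the 219 others, with 0.140% ± 0.00657 of reads (SD, n = 6), were not used. Counts were summed per gene and rounded. edgeR 4.0.16 (R 4.3.3) compared the groups by its robust quasi-likelihood test with TMM scaling, filterByExpr defaults (minimum count 10, minimum total 15) and Benjamini-Hochberg adjustment over 15448 genes, at a threshold of 0.05. Fold changes are with over without Activin A. Receptor forms were set by the exon pair in the annotation, the upstream exon being IIIb, and shares are of TPM over transcripts that hold 1 exon of the pair. Exact permutation tests ran over 20 arrangements. Scripts were tested on simulated counts.

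The 10 genes, the gene lists and the tests were chosen with earlier results of these data known. Named in each list were up to 3 called genes per direction with the smallest p and a mean of at least 1 CPM, and the regulators Esrp1, Esrp2, Ptbp1 and Rbfox2 whatever their values. Member transcripts holding at least 10% of their gene's TPM in either group are named, and Thy1, Dppa4 and listed genes beyond these rules were named after their values were seen. A few items these rules cover are not reported here. Of 29 co-receptor and heparan sulfate genes listed, 28 were annotated. Groups share the numbers 1 to 3, but the deviations of same-numbered libraries correlated at -0.011, -0.03 and -0.049. These correlations gave no sign of a pairing by number, but they cannot exclude it. Other settings tried were DESeq2 1.42.0, upper-quartile or RLE scaling, limma-trend (limma 3.58.1) on log2(TPM + 1) and log2(TPM + 0.1), no filter, a filter of 1 CPM in 3 libraries, a transcript length offset, protein-coding genes only, a replicate block, leaving out each library, and leaving out both doubted libraries. Counting only transcripts of at least 1000 bases was added after the data had been seen. Depth limits the low genes, since 1 read is a large part of a value of a few reads.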

Additional observations from a re-analysis of the deposited data

How the results depend on the processing

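Fgf4, Fgf13, Fgfr1, Fgfr2 and Fgfr3 kept their direction and call in all 18 alternatives. Fgf5 lost its call in both limma-trend fits to TPM, and Fgf15 and Fgfr4 lost theirs in those fits and with the length offset. The cause was not tested. Fgfrl1 was not called in any alternative, and its log2 fold change ran between -0.19 and 0.06 over them and between -0.13 and 0.03 with 1 library left out. It was above 0 without library 3 with Activin A (0.03) and without both doubted libraries (0.06). Limma-trend on log2(TPM + 1) called 1559 genes (781 higher with Activin A, 778 lower), and on log2(TPM + 0.1) 1504 (752 higher, 752 lower). Each called 5 of the 10 FGF genes, 2 of them higher, and in the lists 1 co-receptor or heparan sulfate gene higher and 2 lower, 0 relay genes in either direction, 1 ERK-induced gene higher and 5 lower, and 1 splicing regulator higher and 2 lower. With the length offset, 2050 genes were called (1113 higher, 937 lower), with 3 FGF genes higher, 3 co-receptor genes lower, 2 relay genes lower and 2 ERK-induced genes higher. Upper-quartile scaling called 2702 genes higher and 1737 lower, so 60.9% of calls were higher against 52.2%. Relay genes lower numbered 4 with upper-quartile scaling and 5 with DESeq2, splicing regulators lower numbered 3 with upper-quartile scaling and 3 on transcripts of at least 1000 bases, and 2 relay genes were higher without both doubted libraries.

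With each library left out in turn, 8 FGF genes were called each time, 5 higher and 3 lower. All called genes ran between 3246 and 5689, higher ones between 1763 and 2881 and lower ones between 1483 and 2808. Co-receptor genes called ran between 2 and 5 higher and between 5 and 9 lower, relay genes between 1 and 2 higher and between 4 and 11 lower, ERK-induced genes between 5 and 6 higher and between 5 and 10 lower, and splicing regulators between 1 and 2 higher and between 2 and 9 lower. Transcripts called for usage ran between 186 and 292. The difference in IIIb share ran between -3.87 and 0.0912 points for Fgfr2, turning sign without library 2 with Activin A, and between 0.874 and 3.12 points for Fgfr1, and the difference in the Fgfr1 share without the first Ig exon between 8.47 and 18.1 points.

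With the replicate number as a block, 8 FGF genes were called (5 higher, 3 lower) and 81 transcripts for usage, against 146. The numbers gave no sign of pairing the samples. Of 468 alternatives for named list genes, 421 kept direction and call and 47 lost the call. The median log2 fold change of all genes stayed between -0.036 and 0.031.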
